A study of Mus musculus with 48 samples.

Results

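The endothelial cells of the uninjured, contralateral hemisphere were set against the 3 other cells of the neurovascular unit taken from the same hemisphere, pericytes, astrocytes and microglia. The groups were given by the sample labels and not by any measured value. Of the 48 libraries of the series, 6 were contralateral endothelial cells, and these were compared with 6 libraries each of contralateral pericytes, astrocytes and microglia, 24 libraries in all. All mice were male wild-type C57BL/6 animals of 12 to 15 weeks with an occlusion of the right middle cerebral artery for 1 h, killed 24 h after its onset, so that no library came from an animal without stroke. Each library was made from a pool of 3 to 4 hemispheres. The 4 cell types were sorted from the same tissue, though no source used here ties a replicate number to 1 pool across cell types. Endothelial cells were sorted as VE-cadherin positive cells negative for CD45, ACSA2, NG2 and PDGFRβ, pericytes as NG2 and PDGFRβ double positive cells, astrocytes by high ACSA2, and microglia as CD45 low, CD11b positive cells. Cdh5, Cspg4, Pdgfrb, Atp1b2, Ptprc and Itgam encode these sort antigens, and differences in them are no independent finding.

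Brain endothelial cells line the vessels and form the blood-brain barrier: tight junctions close the path between cells, and transporters carry nutrients in and drugs out across them. Their identity is held by transcription factors of the ETS and SOX families, and Wnt signals from the surrounding tissue keep the barrier state. Along the vascular tree they differ, with arterial, capillary and venous cells each expressing genes of their own.

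Values are normalized counts, that is, reads on a gene divided by the authors' size factor for the library and rounded. A value of 3 reads was taken as the lower limit of detection and was worth at most 4.02 normalized counts in these libraries. Of 24973 genes, 17470 had a mean of at least 10 normalized counts in at least 1 of the 4 groups and were tested with limma on log2(normalized count + 1). Calls needed a fold of 1.5 or more, a log2 difference of 0.585, and a p no higher than 0.05 after Benjamini-Hochberg adjustment within the contrast. Log2 differences on this scale understate the change of genes with low values. The libraries held an estimated 9100000 to 16300000 reads on genes. Pearson's r of log2 values across genes was 0.815 to 0.965 between endothelial libraries, 0.68 to 0.814 between endothelial and pericyte libraries, 0.658 to 0.776 with microglia and 0.567 to 0.733 with astrocytes.

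Endothelial cells were called higher than all 3 other cell types for 916 genes, 5.24% of those tested, and lower than all 3 for 523 genes, 2.99%. Claudin 5, VE-cadherin, the receptor tyrosine kinases of the VEGF and angiopoietin systems, barrier transporters and transcription factors such as Erg, Sox17, Lef1 and Mecom were among the genes called higher. Those called lower included the endocytic receptor Lrp1, the tetraspanins Cd63 and Cd82, the integrin subunits Itgav and Itgb5, and Notch2. Against pericytes, 2607 genes (14.9%) were called higher and 2761 (15.8%) lower. Against astrocytes these were 2809 (16.1%) and 5787 (33.1%), and against microglia 3124 (17.9%) and 3842 (22.0%). The median log2 difference over all genes tested was 0.00 against pericytes, -0.48 against astrocytes and -0.14 against microglia.

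Promoter sequences are shown for 4 of the genes called higher than in all 3 other cell types: the junction gene Cldn5, Cytl1, the ETS factor Erg, and the sialomucin gene Emcn. They are the bases just before a RefSeq start in build GRCm38.p6, written 5′ to 3′ on the strand of the gene, with letters of the searched motifs in capitals. The Cldn5 window is chr16:18776597-18776846 on the plus strand, that of Cytl1 chr5:37735269-37735518 on the plus strand, that of Erg chr16:95459349-95459598 on the minus strand, in an intron of longer Erg transcripts, and that of Emcn chr3:137340828-137341066 on the plus strand. In the Emcn window, 11 bases of an annotated exon next to the start were left out. A window each of Tek and Mecom, not shown, held no searched letters. RefSeq starts give 3 windows for Erg. The one shown is the one that holds searched letters, and the 2 others, among them the window upstream of the first exon, hold none. The capitals in Erg mark an ETS letter run, CAGGAAG, and a GATA letter run, AGATAAG, both on the opposite strand, and those in Emcn mark CAGGAAG on the opposite strand.
Cldn5: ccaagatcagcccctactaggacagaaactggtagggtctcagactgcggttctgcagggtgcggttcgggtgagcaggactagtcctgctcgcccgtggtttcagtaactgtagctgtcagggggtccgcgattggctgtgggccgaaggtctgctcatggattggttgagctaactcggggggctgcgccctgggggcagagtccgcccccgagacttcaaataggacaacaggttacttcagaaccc
Cytl1: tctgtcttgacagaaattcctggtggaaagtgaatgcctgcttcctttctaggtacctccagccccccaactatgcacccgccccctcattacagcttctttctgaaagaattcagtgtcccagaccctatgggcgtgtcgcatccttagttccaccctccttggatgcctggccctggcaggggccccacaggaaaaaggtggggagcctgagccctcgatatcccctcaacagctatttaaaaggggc
Erg: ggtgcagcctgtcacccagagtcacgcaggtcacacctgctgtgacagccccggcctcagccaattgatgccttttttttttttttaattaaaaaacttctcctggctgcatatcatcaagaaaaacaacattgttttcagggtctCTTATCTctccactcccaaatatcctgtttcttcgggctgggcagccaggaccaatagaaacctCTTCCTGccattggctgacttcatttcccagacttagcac
Emcn: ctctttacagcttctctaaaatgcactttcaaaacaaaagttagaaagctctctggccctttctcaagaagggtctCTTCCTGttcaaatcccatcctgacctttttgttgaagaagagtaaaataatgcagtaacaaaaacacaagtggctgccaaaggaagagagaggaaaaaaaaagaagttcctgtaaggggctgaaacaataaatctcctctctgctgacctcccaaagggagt

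Promoter windows of 250 bases were found for 12001 of 17464 symbols tested and for 644 of 913 symbols called higher than in all 3 other cell types. The letters CAGGAAG, on either strand, stood in the windows of 114 of the 644 genes (17.7%), against 12.2% of all genes tested. CCGGAAG, which shares its last 5 letters with that motif and is frequent in promoters of widely expressed genes, was found for 50 of them (7.76%), against 13.7% of all genes tested. At least 1 of both was present for 23.9% of the endothelial genes and 24.4% of all genes. ACAATGG, a SOX letter run, was present for 2.48% against 2.21%, the forkhead run TGTTTAC for 3.42% against 2.82%, and AGATAAG for 1.71% against 2.27%. For the 414 of 523 genes called lower that had a window, the shares of CAGGAAG and CCGGAAG were 12.6% and 13.5%. These shares describe letters in a short window and were not tested.

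The 4 marker genes set every endothelial library apart from the 18 others. Cldn5, the main claudin of the barrier's tight junctions (chromosome 16, 18776847 to 18778260, plus strand), was at 28965 to 57462 normalized counts in endothelial cells with a median of 40348. It was at 538 to 2231 normalized counts in pericytes, 61 to 823 in astrocytes and 44 to 610 in microglia. The log2 differences were 5.18 ± 0.62 (SE) against pericytes, 7.13 ± 0.62 against astrocytes and 7.57 ± 0.62 against microglia (largest limma adjusted p = 2.9e-07). Pecam1, the adhesion molecule CD31, was at 5823 to 18580 normalized counts with a median of 16518 in endothelial cells, against 12 to 556 in the 18 other libraries. Its smallest log2 difference was 5.87, against microglia, and the lowest endothelial value, 5823 in replicate 2, was still above all of them. Ptprb, the phosphatase VE-PTP that acts on VE-cadherin and Tie2, was at 13417 to 19934 normalized counts in endothelial cells and at 0 to 499 in the others, a smallest log2 difference of 5.90. Cdh5, whose product was the sort antigen, was at 1767 to 3275 against 0 to 95 normalized counts, a smallest log2 difference of 5.48. Summed over the 4 genes, pericyte libraries held 1.06% to 4.04% of the endothelial mean, astrocyte libraries 0.21% to 1.76% and microglial libraries 0.34% to 1.62%.

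**Figure D1:**
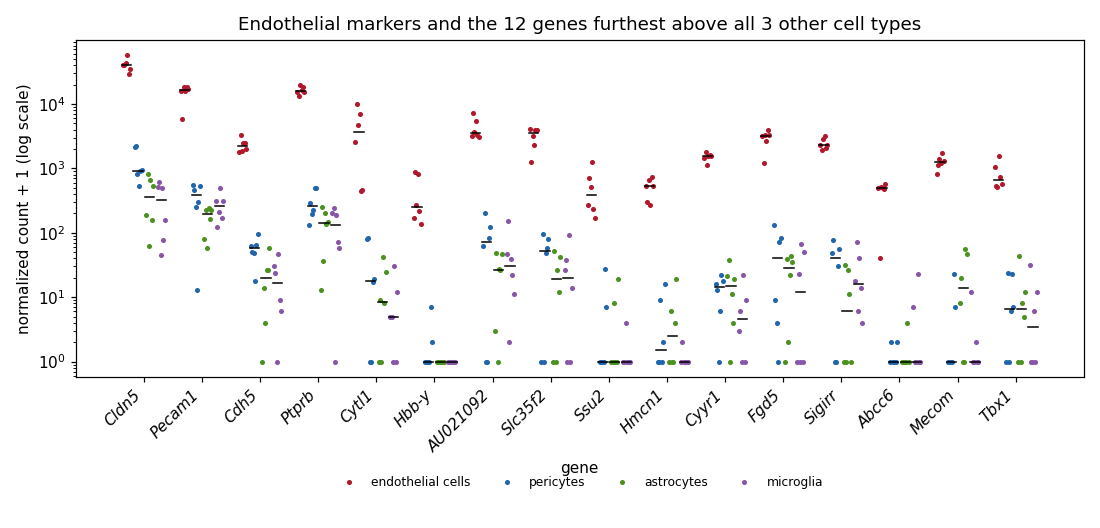
Normalized counts plus 1, on a log axis, of the 4 markers and of the 12 genes with the largest smallest difference, in each of the 24 contralateral libraries; points are libraries, coloured by cell type, and black lines are medians. The 12 genes were picked among those whose 6 endothelial libraries lie above the 18 others. The 4 markers lie so too. Abcc6 in 1 endothelial library was at 40 normalized counts against a highest other value of 22.

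Part of the genes called higher were apart library by library, in the same libraries that gave the calls. In 563 of the genes tested (3.22%) the lowest of the 6 endothelial libraries was above all 18 others, and 538 of these were called higher than in all 3 cell types. Of the 916 genes, 786 had more than 10 normalized counts in all 6 endothelial libraries. Their smallest log2 difference had a median of 2.65, was at least 3 in 390 and at least 6 in 64. The mean filter was passed through the endothelial group alone by 415 genes, of which 189 were called higher, 20.6% of the 916, and such genes could hardly fail to differ in that direction. Reads on the 916 genes made up 26.3% to 29.2% of normalized counts in the endothelial libraries. They made up 3.49% to 4.44% in pericytes, 2.67% to 4.36% in astrocytes and 2.81% to 3.38% in microglia. The genes were chosen in the same libraries, so the larger endothelial share follows from the choice. By annotation, 804 of the 916 were among 14539 protein-coding genes tested and 43 among 623 lincRNAs, of which 1 was called lower. At the fold limit, Rhoa, Vamp4 and Lta4h were just inside with smallest log2 differences of 0.587, 0.613 and 0.627, and Mtus1, Actg1 and Smim10l1 just outside with 0.58, 0.577 and 0.575.

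The 12 genes furthest above the 3 other cell types, by the smallest of their 3 log2 differences, were Cytl1, Hbb-y, AU021092, Slc35f2, Ssu2, Hmcn1, Cyyr1, Fgd5, Sigirr, Abcc6, Mecom and Tbx1, as the plot of marker and leading genes shows. They were picked only among called genes whose endothelial libraries all lay above the others, so that separation follows from the choice. Cytl1, a small secreted cytokine-like protein, was at 440 to 9981 normalized counts in endothelial cells with a median of 3680, and at 0 to 82 in the others. Its smallest log2 difference was 7.71 ± 1.25 (SE; adjusted p = 2.4e-05), while its endothelial values fell into 2595 to 9981 in replicates 1 to 4 and 440 and 458 in replicates 5 and 6. Hbb-y, an embryonic beta-like globin, was at 134 to 869 normalized counts in endothelial cells, at 0 to 6 in pericytes and at 0 in all astrocyte and microglial libraries, where the endothelial mean was at least 103-fold higher than the 3-read limit. Globin genes resemble each other, and reads mapping to several places were left out of the authors' counts, so the value of Hbb-y is uncertain.

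The other leading genes differed in role. Sigirr, an inhibitor of signalling by interleukin-1 and Toll-like receptors, was at 1903 to 3130 normalized counts in endothelial cells and 0 to 75 in the others, a smallest log2 difference of 7.21. Fgd5, an exchange factor for the small GTPase Cdc42, was at 1216 to 3925 against 0 to 129 normalized counts. Mecom, a zinc finger transcription factor, was at 821 to 1716 against 0 to 55, and Tbx1, a T-box factor, at 508 to 1556 against 0 to 43 normalized counts. The transporter genes Slc35f2 and Abcc6 were at 1253 to 4128 against 0 to 93 and at 40 to 578 against 0 to 22 normalized counts. Hmcn1, which encodes the matrix protein hemicentin 1, was at 271 to 726 normalized counts against 0 to 18. The largest limma adjusted p among these 12 genes and 3 contrasts was 9.1e-05, for Slc35f2 against pericytes. These p-values come from the same values by which the genes were picked. Hbb-y, Ssu2, Hmcn1 and Abcc6 passed the mean filter through the endothelial group alone.

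Receptors formed the list with the largest share called higher after the markers. Of 23 endothelial receptors, 17 were called higher than in all 3 other cell types and none lower, with a median smallest log2 difference of 3.86 against -1.35 over all genes tested. The VEGF receptor Flt1 was at 37272 to 57780 normalized counts with a median of 49931 in endothelial cells and at 52 to 1371 in the other libraries. The lymphatic VEGF receptor Flt4 was at 916 to 2959 against 0 to 94 normalized counts, a smallest log2 difference of 7.0, and Kdr, the main signalling receptor for VEGF-A, at 2573 to 7855 with a smallest log2 difference of 5.40. Tek, the angiopoietin receptor Tie2, was at 3634 to 12402 against 11 to 632 normalized counts (smallest log2 difference 6.20). Nrp1 and the insulin receptor Insr were called with smaller differences, 0.96 against microglia and 1.08 against pericytes on the log2 scale, and Insr values overlapped with those of other cells. The sphingosine 1-phosphate receptor S1pr1 was higher than in pericytes and microglia, by log2 differences of 4.65 and 3.80, but was at 21093 to 41227 normalized counts in astrocytes against 7607 to 27098 in endothelial cells (log2 difference -0.57, adjusted p = 0.115). Ednrb, an endothelin receptor, was at 105 to 287 normalized counts in endothelial cells and 4025 to 11636 in astrocytes.

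**Figure D2:**
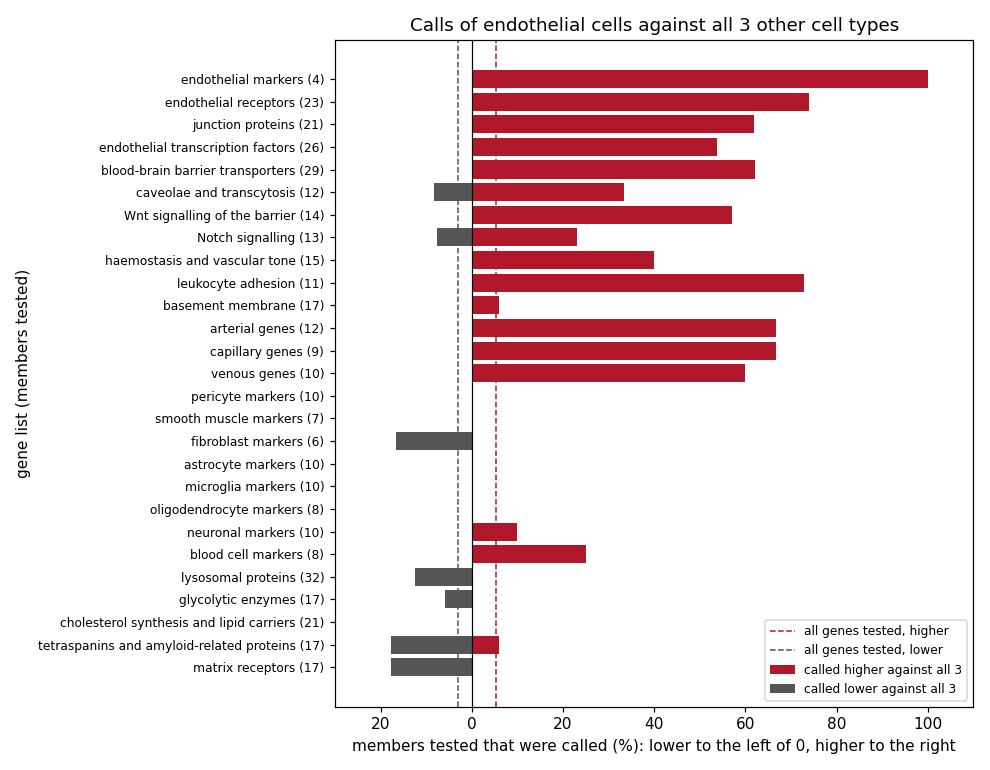
Percent of the members tested of each gene list that were called higher (to the right of 0) or lower (to the left of 0) in endothelial cells against all 3 other cell types; the number tested is in brackets, and dashed lines mark the shares over all genes tested, 5.24% higher and 2.99% lower. The red bars reach 17 of 23 receptors, 13 of 21 junction genes, 18 of 29 transporters and 8 of 11 leukocyte adhesion genes, against 1 of 17 basement membrane genes.

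Among 21 junction genes, 13 were called higher and none lower. Ocln, the tight junction protein occludin, was at 3432 to 11298 normalized counts in endothelial cells and at 37 to 1550 in the others, with a smallest log2 difference of 4.81. The scaffold Tjp1 was at 2107 to 4734 normalized counts in endothelial cells and 378 to 1027 in the others, with a smallest log2 difference of 2.16. Esam, an adhesion molecule of endothelial junctions, was at 18869 to 33899 normalized counts in endothelial cells, 7617 to 12549 in pericytes and 56 to 883 in glia. The connexin Gja1 was called higher than in microglia only and lower than in astrocytes, with a log2 difference of -4.75. Gja4, the connexin of arterial endothelium, was called higher than in both glia but was at 9714 to 13330 normalized counts in pericytes against 512 to 2529 in endothelial cells.

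Of 26 transcription factors linked to endothelium, 14 were called higher than in all 3 cell types. Erg, whose promoter window is given above, was at 519 to 1155 normalized counts with a median of 842 in endothelial cells and at 0 to 38 in the others, a smallest log2 difference of 6.76. Sox17 was at 4806 to 8477 against 0 to 281 normalized counts and Sox18 had a smallest log2 difference of 5.10. Lef1, which carries the Wnt signal to the genome, was at 1186 to 1813 against 0 to 123 normalized counts, and the forkhead factors Foxq1 and Foxf2 had smallest log2 differences of 5.47 and 2.64. Among other ETS factors, Elk3 was called higher than in all 3 cell types, with a smallest log2 difference of 1.15 against microglia. Fli1 was at 1631 to 3246 normalized counts in endothelial cells and 1378 to 2412 in microglia (log2 difference 0.55, adjusted p = 0.682), and Ets2 was called lower than in pericytes (log2 difference -0.93). Foxc1 was at 316 to 1410 normalized counts in endothelial cells and at 492 to 1107 in pericytes. Nr2f2, a factor of venous identity, was called lower than in pericytes (log2 difference -2.86), with endothelial values of 114 to 617 normalized counts.

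Transporters of the barrier were called higher in 18 of 29 cases. The glucose transporter Slc2a1 was at 55830 to 146673 normalized counts in endothelial cells with a median of 133586, and at 1051 to 11458 in the others, with log2 differences of 5.05 against pericytes, 3.76 against astrocytes and 5.66 against microglia. The drug efflux pump Abcb1a was at 6954 to 11878 against 1 to 460 normalized counts, while Abcb1b, its close relative, was at 4 to 227 in endothelial cells and 172 to 402 in microglia. The 2 genes are similar in sequence, and how reads shared between them were lost to counting was not tested. The glutamate carrier Slc1a1 had a smallest log2 difference of 6.65, the amino acid carrier Slc38a5 of 6.23 and the organic anion carrier Slco1a4 of 5.22.

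Some barrier transporters were not private to endothelial cells. Mfsd2a, which carries lysophospholipids and limits vesicle transport, was at 2844 to 8914 normalized counts in endothelial cells and at 7019 to 19196 in astrocytes (log2 difference -0.97, adjusted p = 0.172), although it was higher than in pericytes by 5.01. Slco2b1 was at 1496 to 6271 normalized counts in endothelial cells and at 18629 to 26463 in microglia, a log2 difference of -2.27. The thyroid hormone carrier Slco1c1 was at 9279 to 26389 against 4715 to 9431 normalized counts in astrocytes (log2 difference 1.25, adjusted p = 0.0518).

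Genes of caveolae and vesicle transport were divided between endothelial cells and pericytes. Of 12, 4 were called higher than in all 3 cell types and 1, Lrp1, lower. Plvap, the protein of endothelial fenestrae and vesicle diaphragms, was at 402 to 3910 against 0 to 58 normalized counts. Cavin2 was at 6568 to 11278 normalized counts in endothelial cells and 1 to 419 in the others, and Fcgrt, the neonatal Fc receptor, at 9454 to 12521 against 1085 to 4814. Cav1 was at 2693 to 8158 normalized counts in endothelial cells and 9607 to 13260 in pericytes, ranges that did not overlap. Its log2 difference was -0.93 (limma adjusted p = 0.397), with a spread estimated over all 4 cell types together. Cavin1 was called lower than in pericytes (log2 difference -2.03). Lrp1, an endocytic receptor for lipoproteins and amyloid beta, was at 37 to 604 normalized counts with a median of 146 in endothelial cells and at 3079 to 13947 in the others, with log2 differences of -4.89 against pericytes, -5.51 against astrocytes and -6.23 against microglia (largest adjusted p = 2.8e-09).

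In the Wnt pathway, 8 of 14 genes were called higher and none lower. The receptors Fzd4 and Fzd6 had smallest log2 differences of 1.26 and 3.05, the co-receptor Lrp6 of 0.82, and Reck, which with Adgra2 recognizes the Wnt7 ligands, of 1.92. Adgra2 itself was at 409 to 949 normalized counts in endothelial cells and 218 to 1081 in pericytes. Among targets, Notum, a secreted inhibitor of Wnt ligands, was at 29 to 752 normalized counts against 0 to 46, with 1 endothelial library within the range of the others. Nkd1, another target and inhibitor, was at 717 to 3361 in endothelial cells and 2617 to 5368 in pericytes.

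Notch ligands and receptors were split by member. Dll4, the ligand of tip and arterial cells, was at 1058 to 2774 against 0 to 300 normalized counts, Jag2 at 880 to 2267 against 0 to 100, and Notch4 at 1514 to 2319 against 5 to 817. These were the 3 of 13 members called higher, with smallest log2 differences of 5.71, 4.54 and 1.89. Notch2 was called lower, at 52 to 335 against 765 to 2653 normalized counts in the others (largest of the 3 log2 differences -2.91). Notch3, the receptor of mural cells, and the target Heyl were lower than in pericytes, with log2 differences of -7.75 and -8.98, and neither was called against microglia.

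Among products released into the blood or displayed to it, some were high and others shared. Of 15 genes of haemostasis and vascular tone, 6 were called higher, among them Vwf, the platelet-binding von Willebrand factor, at 14610 to 35724 against 25 to 931 normalized counts, Nos3, endothelial nitric oxide synthase, at 1262 to 7021 against 4 to 238, and Edn1, the vasoconstrictor endothelin 1, at 1864 to 4331 against 0 to 221. Thbd, which turns thrombin to protein C activation, was at 821 to 5656 normalized counts against 501 to 3193 in pericytes (log2 difference 1.40, adjusted p = 0.255). Of 11 leukocyte adhesion genes tested, 8 were called higher. The selectins Selp and Sele, which capture rolling leukocytes, were at 26 to 1289 and 20 to 570 normalized counts in endothelial cells. Both were at 0 in every pericyte and astrocyte library, where the endothelial means were at least 98.4-fold and at least 56.8-fold higher than the 3-read limit, and at most 1 and 5 in microglia. Selp and Sele passed the mean filter through the endothelial group alone and could hardly differ in the other direction. Emcn, the sialomucin shown with its promoter, was at 4230 to 9981 against 0 to 144 normalized counts. Icam1 was lower than in microglia (log2 difference -1.70), and Vcam1, at 3415 to 15292 normalized counts, was not called against astrocytes.

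Of 17 basement membrane genes, 3 were called higher than in pericytes and 5 lower, against 14.9% and 15.8% of all genes tested. The other 9 passed the test in neither direction. Of the same 17, 1 was called higher than in all 3 cell types, close to the 5.24% of all genes tested: Fn1, fibronectin, at 19564 to 34418 normalized counts in endothelial cells, 1511 to 4234 in pericytes and 28 to 959 in glia. The collagen chains Col4a1 and Col4a2 were at 5100 to 16208 and 5717 to 11181 normalized counts in endothelial cells and at 6070 to 24851 and 4303 to 14199 in pericytes, log2 differences of -0.68 and -0.29 (adjusted p = 0.414 and 0.727). Against astrocytes and microglia, 12 and 13 of the 17 were higher in endothelial cells, against 16.1% and 17.9% of all genes tested. The laminin chains Lama2 and Lama5 were called lower than in pericytes (log2 differences -3.93 and -1.96), and Lama2 was also lower than in astrocytes (-6.20).

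The genes lowest in endothelial cells were fewer than the highest. In 148 genes (0.847%) the highest endothelial library was below all 18 others, and 144 of these were called lower than in all 3 cell types. The log2 difference closest to 0 had a median of -1.90 over the 523 genes and was -3 or below in 108. In 48 of the 523, all 6 endothelial libraries were at or below 10 normalized counts. The 523 genes made up 0.60% to 1.17% of normalized counts in endothelial cells. They made up 3.88% to 4.30% in pericytes, 4.96% to 5.87% in astrocytes and 3.60% to 3.82% in microglia. The smaller endothelial share follows from the choice of these genes in the same libraries. Just inside the fold limit were Rnf41 and Opa3 at -0.586 and -0.61, and just outside it Vps35, Eri3 and Reep5 at -0.571, -0.563 and -0.563.

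The 12 genes furthest below the others were Olfml2b, Arhgef10l, Slco4a1, Pde1b, Loxl3, Ncs1, Arhgap24, Tns3, Cercam, Pid1, Usp2 and Ppfibp2. They were picked only among called genes whose endothelial libraries all lay below the others. Olfml2b, an extracellular matrix protein, was at 0 or 1 normalized count in 5 endothelial libraries and at 33 in the sixth, against 451 to 1467 in pericytes, 200 to 334 in astrocytes and 501 to 763 in microglia. Its log2 differences were -8.30, -6.83 and -8.13 (largest adjusted p = 9.8e-10). Cercam, which carries the name of a cerebral endothelial cell adhesion molecule, was at 0 to 4 normalized counts in endothelial cells and at 134 to 283 in pericytes, 41 to 218 in astrocytes and 24 to 131 in microglia. The log2 differences of Cercam were -6.90, -5.94 and -5.11.

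Several of these genes act on the cytoskeleton or on calcium and cyclic nucleotide signals. Arhgef10l, an exchange factor for small GTPases, was at 0 to 90 normalized counts against 270 to 1557, Arhgap24, which turns off Rac, at 0 to 28 against 161 to 677, and Tns3, a tensin of focal adhesions, at 0 to 35 against 108 to 835. The calcium sensor Ncs1 was at 0 to 52 against 128 to 1921 normalized counts, and Pde1b, a phosphodiesterase driven by calcium and calmodulin, at 0 to 16 against 39 to 1324. The matrix cross-linking oxidase Loxl3 was at 0 to 23 against 126 to 946 normalized counts. Usp2, a deubiquitinase, was at 0 to 371 normalized counts against 1762 to 5406.

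**Figure D3:**
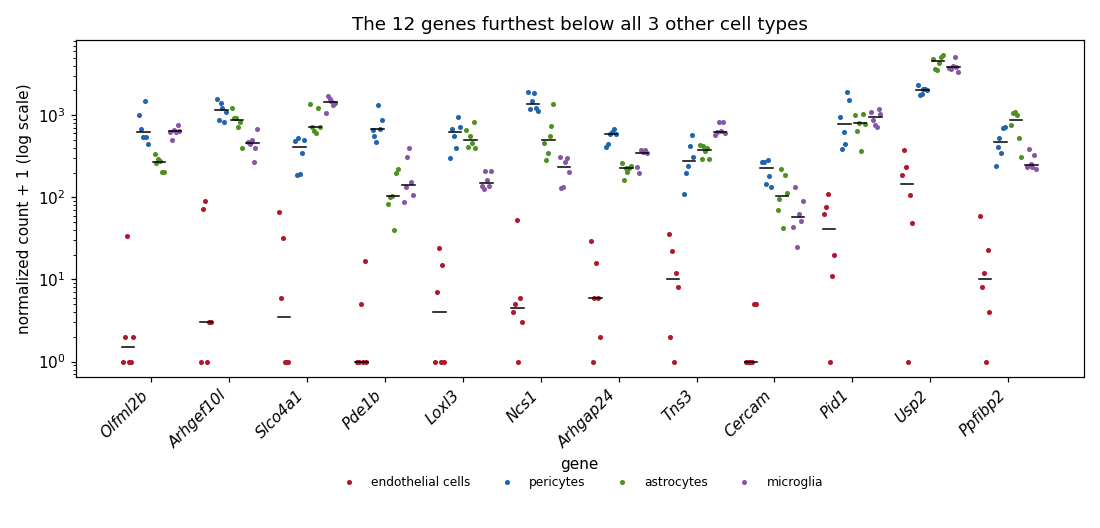
Normalized counts plus 1, on a log axis, of the 12 genes furthest below all 3 other cell types, in each of the 24 contralateral libraries; points are libraries, coloured by cell type, and black lines are medians. The genes were picked among those whose 6 endothelial libraries lie below the 18 others. Endothelial values run from 0 to 4 normalized counts for Cercam to 0 to 371 for Usp2.

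Lysosomal, metabolic and adhesion genes held the rest of the named low genes. Of 32 lysosomal genes, 4 were called lower than in all 3 cell types, among them Cd63, Gaa and Ppt1, and none higher, and 27 were lower than in microglia, against 22.0% of all genes tested. Cd63, a tetraspanin of late endosomes, was at 141 to 6781 normalized counts with a median of 976 in endothelial cells and at 5199 to 15751 in the others, with the value of 6781 in replicate 2 inside the range of the other cells. Ppt1, a palmitoyl thioesterase, was at 1230 to 1963 against 2426 to 9200 normalized counts. The cathepsins Ctsd and Ctsb were lower than in microglia by log2 differences of -4.10 and -3.41 but were not called against pericytes.

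Of 17 glycolytic enzymes, Ldhb alone was called lower than in all 3 cell types, at 323 to 2946 normalized counts against 1066 to 20065, and 1 of 17 is near the 2.99% of all genes tested. Of the 17, 11 were lower than in pericytes and 11 lower than in astrocytes, against 15.8% and 33.1% of all genes tested. Compared with microglia, 6 of the 17 were higher and 2 lower, against 17.9% and 22.0% of all genes tested. Ldha was at 9908 to 15131 normalized counts in endothelial cells and 8416 to 12919 in pericytes. None of 21 genes of cholesterol synthesis and lipid carriage was called in 1 direction against all 3 cell types. Of the 21, 18 were lower than in astrocytes, against the same 33.1%, while 7 were higher and 2 lower than in microglia. Of 17 tetraspanins and amyloid-related genes, Cd63, Cd82 and Tspan7 were called lower and App, the amyloid precursor, higher, at 13933 to 27847 normalized counts in endothelial cells and 2215 to 11235 in the others (smallest log2 difference 1.61, adjusted p = 1.7e-06).

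Matrix receptors were low in 3 of 17 cases and high in none. The integrin subunit Itgav was at 143 to 223 normalized counts in endothelial cells and 344 to 4061 in the others, its partner Itgb5 at 22 to 759 against 471 to 21423, and the hyaluronan receptor Cd44 at 4 to 96 against 9 to 1580. Itga1, a collagen-binding subunit, was at 3091 to 4687 normalized counts in endothelial cells, 3847 to 7580 in pericytes and 2 to 372 in glia, and Itga6, a laminin-binding subunit, was called higher than in pericytes but not than in glia.

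Markers of the 3 other sorted cell types were present at low level in endothelial libraries. Summed blood cell markers were not, at 6253 to 79968 normalized counts. The highest value was in replicate 2, where the summed endothelial markers were at 63144. In a bulk library, fewer cells of a type and less RNA per cell cannot be told apart. None of 10 pericyte, 7 smooth muscle, 10 astrocyte, 10 microglia or 8 oligodendrocyte markers was called higher or lower against all 3 cell types. Of 6 fibroblast markers tested, 1, Col1a2, was called lower. A marker present in 1 other cell type alone could hardly be called against all 3. Summed pericyte markers were at 0.762% to 3.44% of their mean in pericytes and summed astrocyte markers at 0.362% to 1.48% of their mean in astrocytes. Summed microglia markers reached 1.58% to 4.63% of the microglial mean in replicates 1 to 4, and 0.235% to 0.252% in the 2 others. The part of these markers in the results above was not tested. With replicates 5 and 6 alone, 728 genes were called higher than in all 3 cell types, 596 of them among the 916. There were 532 called lower, 303 of them among the 523. These libraries also entered the full fit, so some overlap follows from the choice. The comparison cells were mixed too: pericyte libraries held summed smooth muscle markers of 353679 to 542492 normalized counts, against 4757 to 10522 in endothelial cells, and astrocyte libraries summed oligodendrocyte markers of 49563 to 404882 against 1324 to 12335. Summed fibroblast markers were at 5039 to 14271 normalized counts in pericyte and 561 to 1702 in astrocyte libraries, against 71 to 204 in endothelial cells. Acta2 was at 219016 to 398344 normalized counts in pericytes. Differences from these 2 groups therefore compare endothelial cells with such mixtures.

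Red cell globins were called higher in endothelial cells for 2 of 8 blood cell markers tested, Hba-a1 and its near-identical copy Hba-a2, between which reads are uncertain. Hba-a1 was at 1692 to 22592 normalized counts in endothelial cells and 240 to 5063 in the others, overlapping ranges, with a smallest log2 difference of 1.86 (largest adjusted p = 0.0241). This call was lost without replicate 2, 3 or 4, with adjusted p of 0.0611, 0.0836 and 0.0698, and without the endothelial library of replicate 2, with 0.0771. Ptprc, the leukocyte gene for CD45, was at 0 to 154 normalized counts in endothelial cells. Stmn2, a neuronal marker that is also on the arterial list, was at 903 to 2647 against 0 to 272 normalized counts, and Tubb3, another neuronal marker, at 1 to 95.

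The 6 endothelial libraries differed among themselves in genes of vessel type. The arterial list had 8 of 12 members called higher than in all 3 cell types, the capillary list 6 of 9 and the venous list 6 of 10. Summed arterial genes were at 26920 to 108030 normalized counts in replicates 1 to 4 and at 15878 and 18738 in replicates 5 and 6. Mgp, which was not called against all 3 cell types, was alone at 8137 to 86052. The same arterial sum was at 23563 to 27587 in pericyte libraries, so it was not private to endothelial cells. Summed venous genes were at 58213 to 116799 in replicates 1 to 4 and 37371 and 46110 in replicates 5 and 6. Summed capillary genes went the other way, at 94812 to 137329 and 141715 and 179703 normalized counts.

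Single genes of the 3 lists split less evenly. All 4 values of replicates 1 to 4 were above those of replicates 5 and 6 in 5 of 12 arterial and 4 of 10 venous genes, and below them in 6 of 9 capillary genes, while the arterial gene Unc5b and the venous gene Ephb4 went against their sums. The 2 sets of replicates overlapped in 6 arterial, 5 venous and 3 capillary genes, among them Vwf, at 14610 to 35724 normalized counts in replicates 1 to 4 and 15455 and 14619 in replicates 5 and 6, Bmx, at 1386 to 3020 against 1898 and 1987, and Itm2a, at 34862 to 65363 against 69193 and 47889. Ackr1, the chemokine-binding receptor of venules, was at 1993 to 13555 normalized counts in replicates 1 to 4 and 140 and 608 in replicates 5 and 6, and Selp, on the leukocyte adhesion list, at 42 to 1289 against 26 and 27. The transferrin receptor Tfrc was at 1093 to 3452 in replicates 1 to 4 and at 3857 and 4381 in replicates 5 and 6. Of the 916 genes, 136 (14.8%) had all 4 values of replicates 1 to 4 above those of replicates 5 and 6 and 157 (17.1%) below, against 8.60% and 10.7% of all genes tested. No label used here names a batch for these replicates. Microglia markers moved with them, as given above. Summed blood cell markers were at 14656 to 79968 in replicates 1 to 4 and at 6253 and 7420 in replicates 5 and 6. Smooth muscle markers were at 5547 to 10522 against 4757 and 4763 and fibroblast markers at 98 to 204 against 71 and 83. Neuronal markers, with Stmn2 of the arterial list among them, were at 1304 to 2679 against 968 and 1164. Pericyte, astrocyte and oligodendrocyte sums overlapped between the 2 sets of replicates. The part of all these markers in the split was not tested.

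Replicate 2 stood somewhat apart from the other endothelial libraries. Its mean r with the other 5 was 0.827, against 0.869 to 0.91, and mt-Rnr2 took 3.03% of its normalized counts. Its summed blood cell markers, at 79968 normalized counts, were the highest of the contralateral endothelial libraries. Eng, an endothelial co-receptor for TGF-beta family ligands, was at 1894 normalized counts there and 15421 to 18828 in the other 5, Tie1 at 1685 against 9991 to 12261, and Jup at 327 against 2762 to 4165. Without this library 931 genes were called higher than in all 3 cell types, 820 of them among the 916, and 503 lower, 426 of them among the 523.

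**Figure D4:**
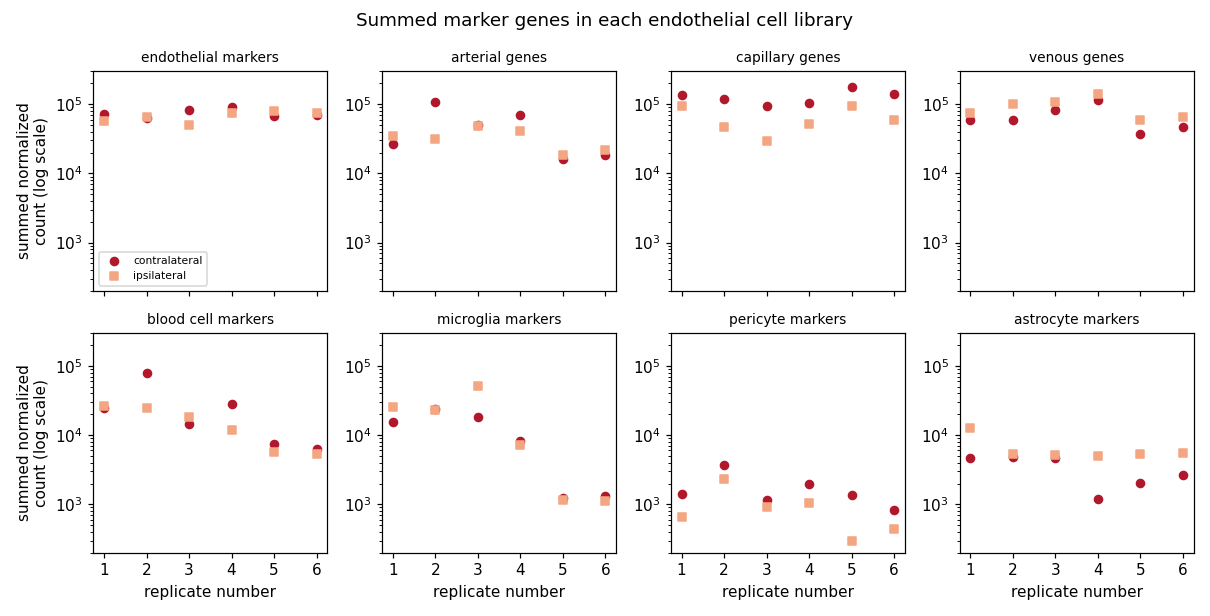
Summed normalized counts, on a log axis, of 8 gene lists in the 6 contralateral (circles) and 6 ipsilateral (squares) endothelial libraries by replicate number. Contralateral arterial and venous sums are lower and capillary sums higher in replicates 5 and 6 than in replicates 1 to 4, and microglia markers in these libraries lie at 1219 and 1308 against 8212 to 24034.

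The genes of endothelial identity were also followed into the ipsilateral hemisphere, in which the artery had been occluded, with 6 endothelial libraries there. These comparisons share the contralateral libraries by which the genes were chosen, so a move towards the other cells can follow from the choice. Of 13242 genes tested between hemispheres, 48 (0.362%) were called higher and 17 (0.128%) lower in ipsilateral cells. None of the 4 markers was called: the log2 difference, ipsilateral minus contralateral, was -0.16 for Cldn5 (adjusted p = 0.85), 0.16 for Pecam1 (0.917), 0.19 for Cdh5 (0.842) and -0.73 for Ptprb (0.246). Among the 901 tested of the 916 genes high in endothelial cells, 3 were called higher and 5 lower, and the median log2 difference was -0.40, against -0.03 for all genes tested. An unadjusted p under 0.05 was found for 250 of them (27.7%), against 1581 of all genes tested (11.9%). Among the 453 tested of the 523 low genes, 2 were called higher and none lower (69, or 15.2%, had an unadjusted p under 0.05), with a median of 0.51.

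The high genes called higher after occlusion were Stc1, Adamts9 and Csf3. Adamts9, a metalloprotease, was at 186 to 347 normalized counts in contralateral cells with a median of 280 and at 703 to 2041 in ipsilateral cells (log2 difference 2.38, adjusted p = 0.00255). Csf3, the granulocyte growth factor, was at 4 to 293 and 188 to 2841 normalized counts. In the contralateral comparison Csf3 had passed the mean filter through the endothelial group alone. Those called lower were Rnf144b, Cdk19, Cavin2, Gulp1 and Rad54b. Cavin2 was at 6568 to 11278 normalized counts in contralateral and 2768 to 5780 in ipsilateral cells, which did not overlap (log2 difference -1.14, adjusted p = 0.037). The low genes called higher were Mmp14, a membrane metalloprotease, and Pde4b, a cyclic AMP phosphodiesterase, with log2 differences of 2.10 and 1.86. Without replicate 3, 4, 5 or 6 none of the high genes was called lower, and without replicate 2 there were 12.

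Capillary genes were lower as a sum in the ipsilateral hemisphere, though no single one was called. The sum was at 94812 to 179703 normalized counts in contralateral and 29637 to 94456 in ipsilateral endothelial libraries, and the ranges did not overlap. Summed astrocyte markers were at 1186 to 4865 normalized counts in contralateral and 5050 to 12728 in ipsilateral endothelial libraries, also without overlap, and summed microglia markers at 1219 to 24034 and 1108 to 51173. The part of these markers in the differences between hemispheres was not tested. Itm2a, the capillary list member furthest above the other cell types, was at 34862 to 69193 and 11369 to 50195 normalized counts (log2 difference -1.36, adjusted p = 0.108). All 9 capillary genes had a negative log2 difference, from -1.36 to -0.84, with adjusted p of 0.108 to 0.442. Of 12 arterial genes 9 were below 0 with a median of -0.39, and of 10 venous genes 4 with a median of 0.01.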

How the data were processed

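Total RNA of the sorted cells, about 250 pg per library, was amplified with the SMART-Seq HT kit, which does not mark strand. Per the submitters' processing notes and the methods, reads were trimmed with Trimmomatic 0.38, aligned to GRCm38 with STAR 2.6.1d, counted on genes with featureCounts 1.6.3 and normalized with DESeq2 1.18.1. The authors deposited the normalized counts as whole numbers. After division by size factors and rounding they are a score, not raw counts, so no count test was run on these deposited values. Reads from a gene and its antisense partner cannot be told apart in them. The worth of 1 read was estimated from the spacing of low values, and intervals of depth cover counting error only.

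limma 3.58.1 in R 4.3.3 fitted all 24 contralateral libraries together, on log2(normalized count + 1) and with a mean-variance trend in eBayes, with contrasts of endothelial cells against each other group, two-sided tests and Benjamini-Hochberg adjustment over all genes of a contrast. The 12 endothelial libraries of both hemispheres were fitted apart. The script was tested on simulated data. P-values measure the spread between pools of mice. The fit of 24 libraries gave 1 spread per gene for all 4 cell types. Spread in any cell type therefore enters every contrast. Cell types and hemispheres were isolated from pooled tissue of the same mice, but no source used here ties a replicate number to 1 pool, so the replicate number was a block only in an alternative.

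Named genes were the 4 markers, the 12 genes furthest above and below the others with no overlap and no predicted gene, and, per list, the 3 members with the largest and the 1 with the lowest smallest difference, or the 2 highest in endothelial cells for lists of other cells. Further list members were named after their values were seen. The endothelial comparison, its members, gene lists and motifs were chosen with earlier results of these data known. Promoter windows are from RefSeq, placed with GENCODE M21. The 12 ipsilateral samples of pericytes and microglia, whose labels conflict on the cell type, were not used. Alternatives are given in the closing section. Results on a few further genes are not reported here.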

Additional observations from a re-analysis of the deposited data

Results flagged for a closer look

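The values of 28 named genes were examined, in groups of 6 libraries with at least 1 value above 10, for a library far from the other 5, by Dixon's test at 95%. Of 104 groups, 15 had such a library. The rate of 1 in 20 set by the test holds for normally distributed values, and these counts were skewed. The limit of 10 also keeps low groups mainly where 1 library is high. The 15 therefore cannot be read against that rate. In endothelial cells there were 6. Pecam1 was at 5823 normalized counts in replicate 2 against 15795 to 18580 in the others, and Abcc6 at 40 in the same library against 474 to 578. Among low genes, Olfml2b was at 33 in replicate 3 against 0 to 1, Ncs1 at 52 in replicate 3 against 0 to 5, Pde1b at 16 in replicate 5 against 0 to 4, and Ppfibp2 at 59 in replicate 1 against 0 to 22.

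In the other cells, endothelial genes stood out at low level in single libraries. In pericytes, Ssu2 was at 26 and Mecom at 22 normalized counts, both in replicate 5. In astrocytes, Hmcn1 was at 18 in replicate 6 and Tbx1 at 43 in replicate 2. In microglia, AU021092 was at 151 in replicate 2, Abcc6 at 22 in replicate 4, and Mecom at 11 and Tbx1 at 31 in replicate 1. Usp2 was at 5156 in microglia replicate 4 against 3378 to 3991 in the others. The calls of these genes against all 3 cell types were kept without each endothelial library in turn.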

How the results depend on the processing

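At a fold of at least 4, genes called higher and lower numbered 1550 and 1704 against pericytes, 1467 higher against astrocytes, 1902 and 2488 against microglia, and 587 and 239 against all 3. Genes low against all 3 numbered 310 with a separate fit for each contrast and 333 when the largest of the 3 p-values was adjusted, and the cause was not tested. With each replicate or endothelial library left out, genes high against all 3 numbered 787 to 931 and low 424 to 603. Genes with all endothelial libraries below the others numbered 230 in replicates 1 to 4 and 1490 in replicates 5 and 6, where 1801 lay above, since fewer libraries overlap less. With the replicate block, 955 genes were high and 553 low against all 3, of which 900 and 506 were shared with the fit without it, and between hemispheres 11 high genes were called lower and 4 low genes higher, and the venous genes Ackr1 and Lcn2 higher (log2 differences 2.33 and 1.78, adjusted p = 0.0369 and 0.0279, against 0.358 and 0.272 without it). The libraries share only a number: deviations of same-numbered libraries from their group means correlated at -0.027 to 0.26 over 18 pairs of endothelial with other cells (mean 0.085, against -0.015 over 90 pairs of different number) and at 0.01 to 0.55 over 6 pairs of hemispheres, in which 3 of 6 contralateral libraries correlated best with their own number. Between hemispheres, with each replicate left out, 1 to 7 high genes were called higher, 0 to 12 lower, and 1 to 2 low genes higher. No named gene reversed its direction. Equal totals moved the share of high among genes called against all 3 from 63.7% to 68.2%. Of the values of named genes, 2309 kept their side of the threshold, 10 lost it and 12 gained it; with replicates 5 and 6 alone the calls of Ssu2, Fzd6 and Ackr1 were lost, and with replicates 1 to 4 alone those of Notum, Notch4 and Tspan7. Values under 4.02 normalized counts, the highest worth of 3 reads in any of the 24 libraries, give no order among genes.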
